A study of Mus musculus with 12 samples.

Results

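Npy4r, Npffr2, Gpr165, Pdyn and Sst are 5 genes of 15557 measured in sorted dermal papilla (DP) cells, the mesenchymal cells at the base of the hair follicle. They code for 2 receptors and 2 peptide precursors of neuropeptide systems, and for Gpr165, a receptor without an established ligand. They were chosen by their log2 fold change of dMF1/2 mutants over controls at postnatal day 16 (P16), being among the largest rises there, so their values at P16 and everything computed from those values are given as a description without a test. That criterion used no value of P14, and the comparison of genotypes at P14 is tested, although results of both days were known when the genes were proposed. All 5 genes had values in all 12 libraries.

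The study asked what Fgf signaling does in the DP during anagen, the growth phase of the hair cycle, and the paper places both days in anagen. The dMF1/2 mice were Cor-cre/+; Fgfr1Flox/Flox; Fgfr2Flox/Flox, so that the receptors Fgfr1 and Fgfr2 are deleted where Cre is made. Cor-cre makes Cre in the DP after birth, and cells were sorted for YFP from a reporter allele that Cre switches on, carried by both genotypes. The sequenced controls, labelled wild type, must therefore have carried Cre, and the control genotype with Cre in the study's crosses is Cor-cre/+; Fgfr1Flox/+; Fgfr2Flox/+, in which 1 floxed allele of each receptor is deleted where Cre is made. There were 4 groups of 3 libraries, namely P14 control, P14 dMF1/2, P16 control and P16 dMF1/2. Each library came from 1 mouse, with 3 mice per genotype and day.

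Neuropeptides are cut from larger precursors, packed into secretory granules, released, and bound by G protein-coupled receptors on nearby cells. Npy4r is a receptor of the neuropeptide Y family and binds pancreatic polypeptide with the highest affinity. Npffr2 is a receptor for neuropeptide FF and related peptides that end in arginine and phenylalanine amide. Gpr165 is an orphan receptor, without an established ligand. Pdyn is the precursor of dynorphins, opioid peptides that act on the kappa opioid receptor Oprk1. Sst is the precursor of somatostatin, an inhibitory peptide that acts on the receptors Sstr1 to Sstr5. The neuropeptide Y, kappa opioid and somatostatin receptors signal through Gi/o proteins, which lower cyclic AMP.

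In GRCm38 coordinates as deposited, Npy4r (ENSMUSG00000048337) lies on chromosome 14 from 34143992 to 34152489 on the minus strand and Npffr2 (ENSMUSG00000035528) on chromosome 5 from 89527429 to 89583740 on the plus strand. Gpr165 (ENSMUSG00000031210) lies on chromosome X from 96713441 to 96719388 on the plus strand. Pdyn (ENSMUSG00000027400) lies on chromosome 2 from 129686565 to 129699844 and Sst (ENSMUSG00000004366) on chromosome 16 from 23889581 to 23890844, both on the minus strand. The 5 genes thus lie on 5 chromosomes, and no annotated gene overlaps any of them. Reads were counted over their exons, which merge into 2 blocks in Npy4r and Sst, 4 in Npffr2 and Gpr165, and 5 in Pdyn.

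The coding sequence of Sst is shown where it encodes the active peptide, to identify what the counted transcript would yield. In the reference transcript Sst-201, the last 14 of 116 codons (103 to 116) encode somatostatin-14.
Sst-201, codons 103 to 116: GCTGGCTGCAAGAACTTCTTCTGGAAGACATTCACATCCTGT
Counts per gene do not separate the peptides of a precursor.

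The 12 libraries held 19302358 to 29860750 reads. Fgfr1 was lower in every dMF1/2 library than in every control library on both days, with 8885 ± 1119 (SD, n = 3) normalized reads in controls and 6731 ± 583 in dMF1/2 at P14 and 10323 ± 2030 and 7264 ± 929 at P16. The difference in Fgfr1 did not pass the test (limma, adjusted p = 0.501 and 0.130), except with the replicate number as a block at P16 (adjusted p = 0.0109). Fgfr2 was at 4783 ± 260 and 4483 ± 766 at P14 and at 5079 ± 298 and 5081 ± 838 at P16. Reads over the whole gene need not fall where a deletion takes out only some exons, and which exons are floxed was not used here. Col1a1, the most abundant transcript, took 7.06% of reads in P14 control 1 and 9.15% in P14 dMF1/2 1, against 13.1% to 17.7% in the other 10 libraries. At P14, limma without a block was therefore also run without both of these libraries. The other tests at P14 were not rerun without them.

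Npy4r was the member with the widest separation. At P14 the control libraries had 80.1, 163 and 41.0 normalized reads (reads divided by a library's size factor) and the dMF1/2 libraries 1887, 1331 and 909. At P16 the controls had 5.24, 10.4 and 7.10 and the dMF1/2 libraries 446, 1244 and 1051. On both days the lowest dMF1/2 library lay far above the highest control library.

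Npffr2 separated little at P14 and widely at P16. Its P14 control libraries had 226, 113 and 151 normalized reads and its P14 dMF1/2 libraries 247, 309 and 612. The groups did not overlap, but the highest control and the lowest dMF1/2 library were close. At P16 the controls had 12.2, 96.4 and 13.2 and the dMF1/2 libraries 727, 650 and 666. Control 2 stood well above the other P16 controls, whereas the P16 dMF1/2 libraries were the most even group of any member, with an SD of 5.66% of the mean.

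Gpr165 was well above 0 in every P14 control. These had 311, 607 and 283 normalized reads and the P14 dMF1/2 libraries 912, 988 and 723, so that the lowest dMF1/2 library was not far above the highest control. At P16 the controls had 11.3, 141 and 128 and the dMF1/2 libraries 625, 1115 and 1086. P16 control 1 was low against the other controls.

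Pdyn had 54.0, 19.3 and 22.4 normalized reads in P14 controls and 476, 180 and 194 in P14 dMF1/2. Library 1 was the highest of each of these groups. At P16 the controls had 9.60, 34.2 and 84.2 and the dMF1/2 libraries 340, 337 and 551. The groups did not overlap on either day.

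Sst had the fewest reads of the 5. The P14 controls had 12.1, 4.29 and 1.95 normalized reads and the P14 dMF1/2 libraries 146, 35.2 and 55.5. At P16 no control library held a read of Sst, and the dMF1/2 libraries had 4.32, 30.8 and 27.5, from 4, 33 and 26 reads. A count of 0 allows up to 3 reads in each control library. Against that floor, the mean of P16 dMF1/2 was at least 7.14-fold higher.

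**Figure D1:**
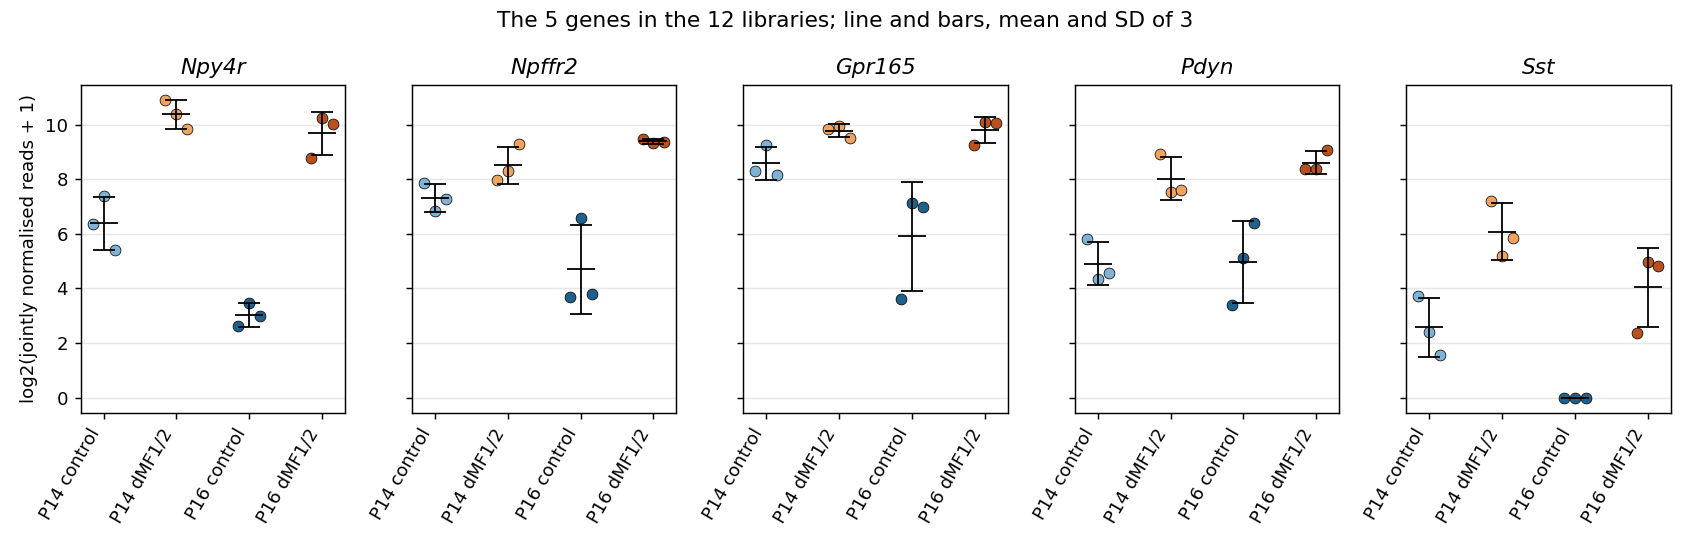
Levels of Npy4r, Npffr2, Gpr165, Pdyn and Sst in the 12 libraries, as log2 of the normalized reads plus 1 after scaling all libraries together (y axis), by group (x axis); points are libraries in the order of their numbers, and lines with bars are the mean and SD of 3. In each panel and on each day all dMF1/2 points lie above all control points, and the 3 Sst points of P16 control lie at 0.

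Per length, as RPKM (reads scaled by the length of the merged exons and by the library's total), Npy4r was at 1.17 ± 0.69 in P14 control and 17.3 ± 8.7 in P14 dMF1/2. The latter level was above that of 89.1% of the genes measured at P14, and the former above 33.2%. The RPKM of Npffr2 was 4.7 ± 2.61 and 10.1 ± 4.2, that of Gpr165 was 3.89 ± 1.47 and 8.51 ± 2.0, that of Pdyn was 0.54 ± 0.43 and 4.59 ± 3.42, and that of Sst was 0.43 ± 0.44 and 5.19 ± 4.64. In P14 dMF1/2 the 5 genes thus lay above 62.3% to 89.1% of genes. In P16 dMF1/2 the RPKM was 10.6 ± 4.7 for Npy4r, 17.5 ± 1.6 for Npffr2, 8.72 ± 2.58 for Gpr165, 6.04 ± 2.17 for Pdyn and 1.21 ± 0.83 for Sst. In P16 control it was under 1 for each of them. Sst in P16 dMF1/2 was above only 35% of genes.

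At P14, whose values the criterion did not use, all 5 were higher in every dMF1/2 library than in every control library. The exact permutation test gives p = 0.1 (two-sided) for each, the smallest p that 3 against 3 libraries allow. Among all 13334 genes tested at P14, 6.33% had every dMF1/2 library above every control library. On the log2 scale of normalized reads plus 1, the difference of dMF1/2 over control was 4.0 ± 0.49 (SE) for Npy4r, 3.51 ± 0.70 for Sst, 3.11 ± 0.49 for Pdyn, 1.20 ± 0.29 for Gpr165 and 1.20 ± 0.38 for Npffr2. The 95% intervals ran from 2.84 to 5.16 for Npy4r, from 1.86 to 5.15 for Sst and from 1.95 to 4.28 for Pdyn, and for Gpr165 and Npffr2 from 0.52 to 1.88 and from 0.30 to 2.09. A log2 fold change of at least 1 in this direction was found in 0.84% of the genes tested.

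None of the 5 passed the threshold of 0.05 after adjustment over all genes in the test without pairing, in which 0.0525% of all genes passed (limma, Benjamini-Hochberg). The adjusted p was 0.0826 for Npy4r, 0.145 for Pdyn, 0.248 for Sst, 0.309 for Gpr165 and 0.494 for Npffr2. Sst met the filter of a mean of at least 10 only through dMF1/2 (79.0), its control mean being 6.12. With no filter on low values its adjusted p in limma was 0.231. It was not tested where every library had to hold at least 10 reads. All 5 had an unadjusted p under 0.05 (7.4e-05, 0.000382, 0.00145, 0.00409 and 0.0156), as 7.32% of all genes had. In order of p among 13334 genes Npy4r came 11th and Pdyn 35th, with Sst at 76, Gpr165 at 175 and Npffr2 at 420.

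Libraries with the same number deviated together within a day, although the labels do not say that they were paired. The pairing thus rests on correlations in these same data. With the number as a block 4 of the 5 passed. The adjusted p was then 0.0014 for Npy4r, 0.00117 for Pdyn, 0.00645 for Sst, 0.0136 for Gpr165 and 0.14 for Npffr2, where 0.66% of all genes passed as higher in dMF1/2. Pdyn was the most even across pairs. Its log2 ratio of dMF1/2 over control was 3.11, 3.16 and 3.06 in the pairs numbered 1, 2 and 3, although its level in dMF1/2 ran from 180 to 476. The pairs of Npffr2 were the most uneven, at 0.13, 1.45 and 2.01. Those of Npy4r were 4.54, 3.02 and 4.44, those of Gpr165 1.55, 0.70 and 1.35, and those of Sst 3.49, 2.78 and 4.26.

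DESeq2 on the recovered reads called the same 4 genes as the block did, with adjusted p = 4.12e-15 for Npy4r, 1.24e-07 for Pdyn, 8.6e-05 for Sst and 0.0191 for Gpr165, and left Npffr2 at 0.0662. DESeq2 called 0.645% of all genes as higher in dMF1/2. The edgeR quasi-likelihood test called none of the 5, with adjusted p = 0.0951, 0.173, 0.245, 0.342 and 0.473 in the same order. Without P14 control 2, the control with the highest Npy4r and Gpr165, limma gave adjusted p = 0.0377 for Npy4r and 0.0465 for Gpr165. Leaving out any other single P14 library raised both, to at most 0.332 for Npy4r and 0.771 for Gpr165. Without both P14 libraries numbered 1, limma gave 0.0289 for Pdyn, but 0.196 for Npy4r and 0.576 for Gpr165. The log2 difference of Npffr2 was then 1.73 in place of 1.20.

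**Figure D2:**
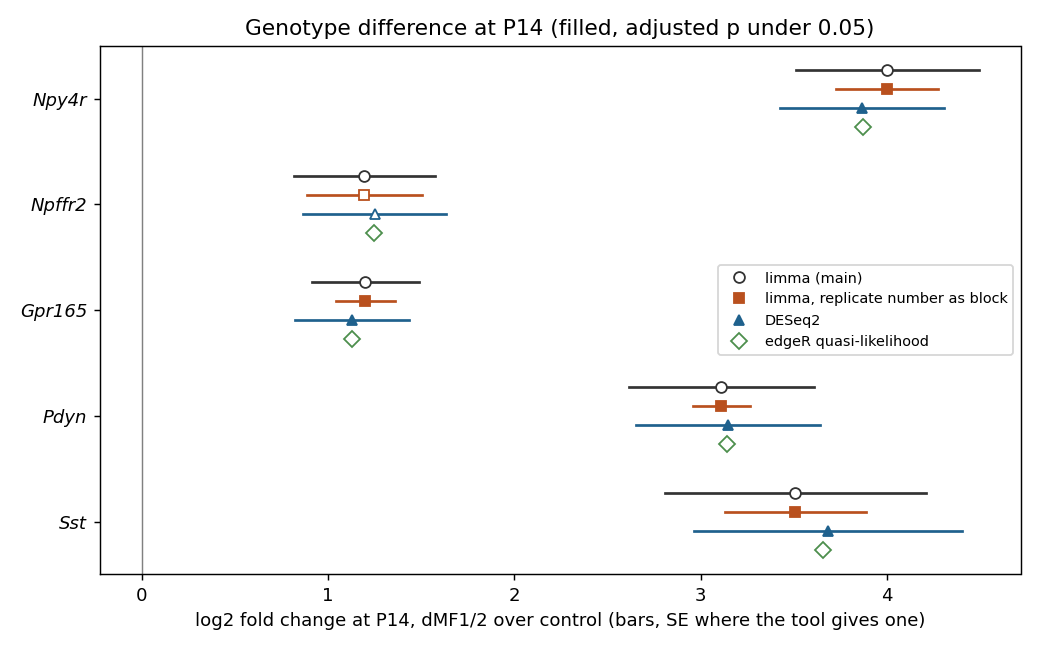
Log2 fold change at P14 of dMF1/2 over control (x axis) for each gene (y axis) from 4 tests; bars are the SE where the tool gives one, and filled marks have an adjusted p under 0.05. The estimates of the 4 tests lie close together for each gene, from 1.13 to 1.25 for Gpr165 and Npffr2 and from 3.11 to 4.0 for the others, while filled marks appear only for limma with the block and for DESeq2, and not for Npffr2.

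At P16, the contrast by which the genes were chosen, every dMF1/2 library lay above every control library for all 5, as for 12.9% of the genes tested there, and the log2 difference of dMF1/2 over control was 6.65 for Npy4r, 4.69 for Npffr2, 4.08 for Sst, 3.91 for Gpr165 and 3.66 for Pdyn. That of Sst depends on the pseudocount, because its controls held no read. In order of this difference over the 13457 genes tested, they took the places 1, 2, 5, 8 and 11, which restates the criterion. Just above Pdyn, the last of them, stood Gm11541 (3.73), and just below it, outside the 5, stood Grin2c (3.57), a glutamate receptor subunit. Close below Pdyn stood also Ddx3y (3.55), a gene of the Y chromosome. The sex of the mice was not used here, and its part in the P16 differences was not tested. These genes are named as neighbors in that order, after their values were seen.

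The size of the P16 differences moved with single libraries. When 1 of the 6 P16 libraries was left out, the log2 difference ran from 6.37 to 7.11 for Npy4r, from 4.2 to 5.64 for Npffr2, from 2.75 to 4.52 for Gpr165, from 2.87 to 4.37 for Pdyn and from 3.62 to 4.91 for Sst. Without control 1 it was 2.75 for Gpr165 and 2.87 for Pdyn, and without control 2 it was 5.64 for Npffr2 and 4.52 for Gpr165. Without control 3 it was 4.37 for Pdyn, and without dMF1/2 1 it was 4.91 for Sst. The pairs of Gpr165 at P16 were 5.66, 2.97 and 3.08, and the pair numbered 1 holds that control. The Npffr2 pairs were 5.78, 2.74 and 5.56, the low value being the pair with control 2.

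The 2 days were compared on reads scaled over all 12 libraries, again as a description. In controls, Npy4r went from 96.0 ± 63.2 at P14 to 7.46 ± 2.55 at P16, a log2 change of -3.35. Npffr2 went from 166 ± 59 to 40.0 ± 47.5 (-2.62), and Gpr165 from 406 ± 182 to 92.0 ± 70.3 (-2.67). In these 3 receptor genes the control libraries of the 2 days did not overlap. Without P16 control 1 the change of Gpr165 was -1.52, and without P16 control 2 it was -3.28, and that of Npffr2 was then -3.56.

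In dMF1/2, of the receptors only Npy4r had a lower mean at P16, as in controls. Npy4r was at 1392 ± 500 and 897 ± 410, a log2 change of -0.70, with libraries of the 2 days overlapping. Gpr165 was at 884 ± 138 and 924 ± 271 (0.03), also overlapping. Npffr2 was at 394 ± 197 at P14 and 668 ± 38 at P16 (0.87), and the 2 days did not overlap.

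Of the 2 precursors, Pdyn was at 32.3 ± 19.4 and 42.1 ± 37.5 in controls (0.05) and at 287 ± 170 and 402 ± 121 in dMF1/2 (0.59), and in both genotypes the libraries of the days overlapped. The control change of Pdyn rested on single libraries, at 0.84 without P16 control 1 and -0.66 without P16 control 3. Sst was at 6.20 ± 5.39 in P14 controls, and no P16 control held a read. Against the floor of 3 reads in each P16 control library, the mean of P14 control was at least 2.15-fold higher, but P14 control 3, with 2 reads, lay under that floor, so the control days were not separated at this depth. In dMF1/2, Sst went from 80.0 ± 60.1 to 20.5 ± 14.2 (-2.03), without overlap. Without P16 dMF1/2 1 that change was -1.20.

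In order of level, P16 dMF1/2 was the highest group for Npffr2, Gpr165 and Pdyn, and P14 dMF1/2 for Npy4r and Sst. The 2 dMF1/2 groups overlapped for Npy4r, Gpr165 and Pdyn. P16 control was the lowest group for all but Pdyn, whose control groups overlapped. For Sst, P16 dMF1/2 overlapped with P14 control.

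The genes whose level over the 12 libraries was most like that of each member were listed among 13415 genes, as Pearson correlations of log2 values. The points share their 4 groups, and the correlations are given as a description. For Npy4r they were Ephx2 (r = 0.978), a soluble epoxide hydrolase, Lrrn2 (0.967) and Snap91 (0.965), a clathrin adaptor of synaptic vesicle recycling. For Sst they were Slc35f1 (0.980), Cdk5rap2 (0.967) and again Lrrn2 (0.966), and for Gpr165 they were Traf3ip3 (0.970), Sostdc1 (0.966), a secreted antagonist of BMP and Wnt signaling, and Ptprz1 (0.962), a receptor tyrosine phosphatase. For Npffr2 they were Nwd1 (0.947), Cdkl3 (0.937) and Tubd1 (0.931), and for Pdyn they were Zfp871 (0.938), Fmnl2 (0.935) and Mturn (0.932). Lrrn2 went from 405 to 1114 scaled reads between P14 control and P14 dMF1/2, and Snap91 from 383 to 1307. Among the 5 members, correlations within groups (each library against its group mean) ran from -0.01 for Npffr2 and Sst to 0.63 for Npy4r and Sst, with a median of 0.30 over 10 pairs.

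The promoters were read to see whether the members share a short motif. RefSeq (GRCm38.p6) held a window of 250 bases before to 50 after the start for all 5 genes. Motifs were searched on both strands, namely the cyclic AMP response element TGACGTCA, the TCF/LEF motif CTTTGA, the ETS motif CCGGAA, the AP-1 motif TGANTCA and the E-box CAGCTG, which do not overlap each other in the windows of the members. They were found in 1.79%, 16%, 14.9%, 7.81% and 16.3% of 32851 promoters. The promoter of Sst held the cyclic AMP response element 48 bases before the start, and that of Gpr165 held the E-box 21 bases before it. None of these letters stood in the windows of Npy4r, Npffr2 or Pdyn, so no motif searched was shared by 2 members. The windows with a match are shown with the motif in capitals, in the direction of transcription.
Sst, chr16:23890795-23891094, minus strand: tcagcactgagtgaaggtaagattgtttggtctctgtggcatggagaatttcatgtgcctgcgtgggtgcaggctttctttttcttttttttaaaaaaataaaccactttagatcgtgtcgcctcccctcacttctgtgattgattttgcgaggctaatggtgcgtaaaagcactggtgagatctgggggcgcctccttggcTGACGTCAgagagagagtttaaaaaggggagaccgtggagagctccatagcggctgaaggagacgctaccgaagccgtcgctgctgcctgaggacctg
Gpr165, chrX:96713218-96713517, plus strand: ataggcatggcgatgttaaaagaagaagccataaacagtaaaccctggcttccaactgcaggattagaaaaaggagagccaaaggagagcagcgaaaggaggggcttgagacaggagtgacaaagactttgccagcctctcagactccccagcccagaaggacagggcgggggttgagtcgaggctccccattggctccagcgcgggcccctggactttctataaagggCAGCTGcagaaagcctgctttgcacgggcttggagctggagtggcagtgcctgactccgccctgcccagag
A match of letters does not show that a factor binds there. The main promoters of the 5 genes had a GC content of 50.3% to 62.0%, against a median of 52.7% over all promoters.

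The ligands and receptors that pair with the members were then followed. Of 20 listed, 8 had values. Oprk1, the receptor for the dynorphins that Pdyn encodes, was counted at 1, 4 and 3 reads in P14 controls and at 19, 22 and 9 in P14 dMF1/2, and at 3, 2 and 3 reads in P16 controls and 10, 18 and 10 in P16 dMF1/2. Every dMF1/2 library was thus above every control library on both days, at a low level of at most 22 reads. Its mean was under 10 on each day, and it was tested only in the fit without a filter on low values, where it was called as higher at P16 (log2 difference 1.92 ± 0.40, adjusted p = 0.0388) and not at P14 (2.28 ± 0.53, adjusted p = 0.299).

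Of the somatostatin receptors, Sstr1 had 28.9, 91.1 and 39.0 normalized reads in P14 controls and 47.9, 128 and 90.0 in P14 dMF1/2, and the groups overlapped. At P16 it had 4.37, 38.4 and 9.13 in controls and 44.3, 66.3 and 211 in dMF1/2. The log2 difference was 0.79 ± 0.50 at P14 (adjusted p = 0.867) and 2.75 ± 0.79 at P16 (0.099), where it passed with the block (0.0402). Sstr2 was at 6 reads or fewer in every library. Sstr4 had means of 12.7 to 18.8 over the 4 groups, with log2 differences of 0.66 at P14 and -0.12 at P16 that did not pass (adjusted p = 0.915 and 0.906).

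Npff, the precursor of the Npffr2 ligand, was at 2 to 12 reads in all libraries. Npvf, the precursor of related peptides, had 41.9, 25.7 and 21.5 normalized reads in P14 controls and 20.2, 7.47 and 8.89 in P14 dMF1/2. At P16 the order of the genotypes was the opposite, with 0, 1.04 and 0 in controls and 9.72, 3.73 and 8.47 in dMF1/2. Neither difference passed (adjusted p = 0.572 at P14, and 0.0534 at P16 without a filter on low values).

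Other neuropeptide Y receptors with values were Npy1r and Npy2r. Npy1r was at 80.2 ± 18.2 in P14 control and 110 ± 27 in P14 dMF1/2, and at 177 ± 60 and 122 ± 31 at P16, where the log2 difference of -0.51 passed only with the block (limma, adjusted p = 0.422, and 0.0494 with the block). Npy2r, named after its values were seen, was at 45.5 ± 10.8 and 47.6 ± 14.7 at P14 and at 8.12 ± 5.93 and 52.7 ± 36.9 at P16, a log2 difference of 2.64 ± 0.70 (adjusted p = 0.0808, and 0.0126 with the block), called by DESeq2 too. Npy, Pyy, Ppy, Gpr83, Sstr3 and Sstr5 were looked for and gave no values on either day.

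Over 5 lists of the wider system (ligands and receptors of the members, other neuropeptide precursors, other neuropeptide receptors, enzymes of peptide processing and breakdown, and Gi/o proteins with adenylyl cyclases and regulators of G protein signaling), no gene of 119 tested passed at P14 in limma (0.0525% of all genes did). There 16 had an unadjusted p under 0.05, beside 7.32% of all genes, edgeR called none, DESeq2 called 5 (1.55% of all genes) and the block 4 (1.68% of all genes). At P16, 10 of 115 genes passed (8.7%, against 4.32% of all genes), 5 higher and 5 lower in dMF1/2, and with the block 26 passed (22.6%, against 10.4%). The median log2 difference at P16 was 1.26 over 4 tested ligands and receptors of the members, -0.14 over 15 precursors, 0.05 over 33 receptors, -0.07 over 28 enzymes and -0.04 over 35 signaling genes, beside -0.00429 over all genes.

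Among other precursors, 2 of 15 tested rose at P16 in dMF1/2 and 1 fell, where limma called 4.32% of all genes in either direction. Edn3, the precursor of endothelin 3, was at 453 ± 163 in controls and 1255 ± 403 in dMF1/2 (log2 difference 1.48, adjusted p = 0.0472). Apela, a ligand of the apelin receptor, was at 37.6 ± 12.1 and 120 ± 23 (1.68, adjusted p = 0.018). Qrfp, the precursor of another peptide that ends in arginine and phenylalanine amide, fell from 119 ± 54 to 20.6 ± 9.6 (-2.50, adjusted p = 0.0196).

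Among other receptors, 1 of 33 rose and 1 fell, a share near the 4.32% of all genes, and with the block 4 passed, against 10.4%. Avpr1a, a vasopressin receptor, was at 4343 ± 261 in P16 controls and 676 ± 337 in P16 dMF1/2 (-2.80, adjusted p = 0.00504), and at 2434 ± 1126 and 444 ± 273 at P14, where it passed with the block (adjusted p = 0.255, and 0.00315 with the block) and was called by DESeq2. Ednra, a receptor for endothelins, was at 1955 ± 354 and 3515 ± 274 at P16 (0.86, adjusted p = 0.0162), and at P14 its log2 difference of 0.42 passed only with the block (adjusted p = 0.397, and 0.0357 with the block). In 10 genes of the lists that passed at P16 the absolute log2 difference was at most 2.80, under that of each member, which were chosen by that value. Avpr1a and Enpep passed at P16 whichever single P16 library was left out, while each of the other 8 lost the call in at least 2 of 6 such fits.

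Among enzymes, 2 of 28 fell and none rose at P16, again beside 4.32% of all genes, and with the block 4 passed, beside 10.4%. Ace, the angiotensin converting enzyme, was at 3158 ± 894 and 1394 ± 187 (-1.15, adjusted p = 0.0196), and Enpep, glutamyl aminopeptidase, was at 348 ± 88 and 84.2 ± 19.8 (-2.03, adjusted p = 0.00529). The enzymes that cut and amidate precursors such as Pdyn and Sst, named here for that role after their values were seen, did not pass in limma, and DESeq2 called Pcsk2 at P14. Pcsk2 was at 15.4 ± 3.0 and 41.5 ± 6.2 at P14 (adjusted p = 0.243) and at 22.1 ± 10.5 and 47.0 ± 14.7 at P16 (0.186), without overlap on either day. Cpe was at 2566 ± 520 and 2702 ± 605 at P16 and Pam at 14192 ± 1338 and 12412 ± 2166. Among signaling genes, Rgs6 (1.10, adjusted p = 0.049) and Gnb5 (0.62, adjusted p = 0.0307), whose proteins form a complex, rose and Rgs10 (-0.76, adjusted p = 0.0424) fell at P16, 3 of 35 tested beside 4.32% of all genes, and with the block 11 passed, beside 10.4%. At P14 Rgs6 passed with the block (log2 difference 0.74, adjusted p = 0.115, and 0.0241 with the block) and was called by DESeq2.

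**Figure D3:**
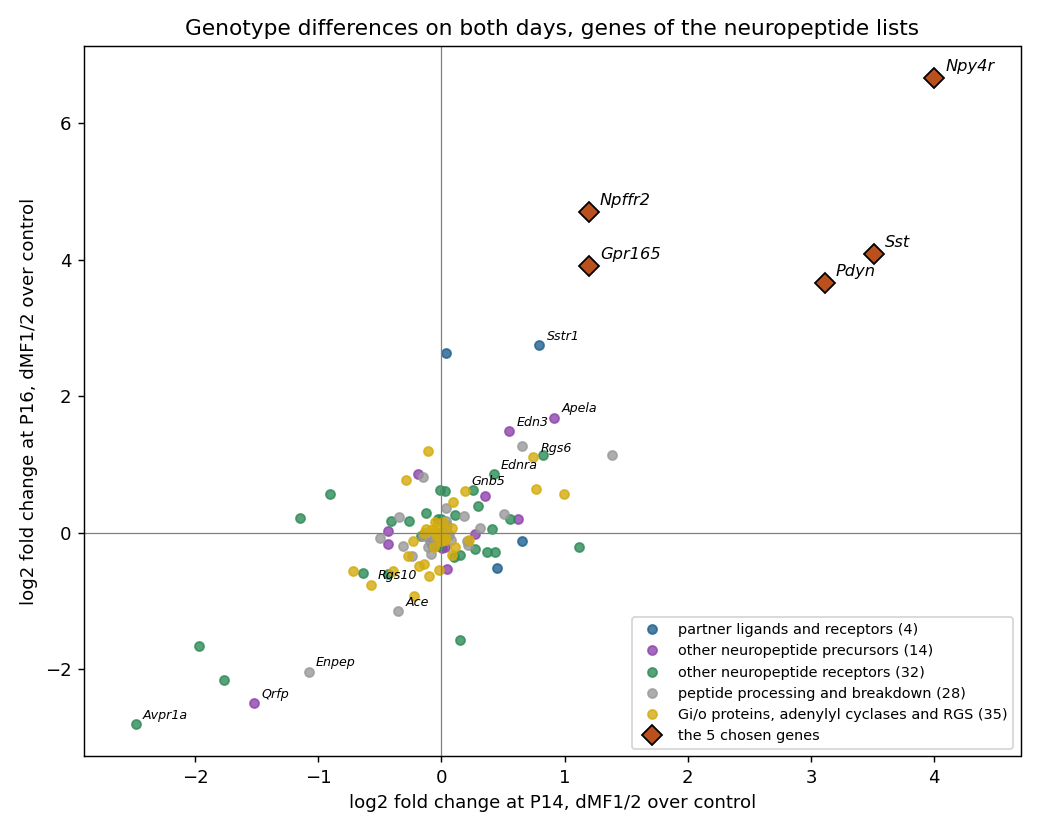
Log2 fold change of dMF1/2 over control at P14 (x axis) and at P16 (y axis) for 113 genes of the neuropeptide lists tested on both days (circles, colored by list) and for the 5 chosen genes (diamonds); list genes with an adjusted p under 0.05 at P16, and Sstr1, are named. The 5 genes lie above 3.6 on the y axis, by which they were chosen, and from 1.20 to 4.0 on the x axis, while the named list genes lie between -2.80 and 2.75 on the y axis.

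The cell type was checked by marker lists in CPM (reads scaled to the library's total). All 18 DP markers listed had values in every group, and their summed level was 5821 to 11598 CPM in P14 control and 5080 to 10858 in P14 dMF1/2, so the genotypes overlapped. At P16 it was 2862 to 5183 in controls and 5858 to 8873 in dMF1/2, without overlap. Between the days, the sum of controls was lower at P16 without overlap, while the days overlapped in dMF1/2. At P16, 5 of 18 DP markers were higher in dMF1/2 (Alpl, Nog, Prom1, Ndp and Fgf10), where limma called 2.18% of all genes as higher, and 1 was lower (Crabp1), with a median log2 difference of 0.91. With the block 12 were higher and 1 was lower at P16, beside 10.4% of all genes in either direction. At P14 none passed in limma (0.0525% of all genes did), 6 had an unadjusted p under 0.05 (7.32% of all genes), 4 passed with the block (1.68%), 5 in DESeq2 (1.55%) and 0 in edgeR, with a median of 0.15. The lowest summed level, 2862 CPM, was in P16 control 1, the library in which Npy4r, Npffr2, Gpr165 and Pdyn were lowest. At P14 the highest sums of both genotypes, 11598 and 10858 CPM, were in the libraries numbered 1, in which Pdyn and Sst were highest. The other members did not follow this in both genotypes. Npy4r was highest in control 2, Npffr2 was lowest in dMF1/2 1, and Gpr165 was highest in library 2 of both genotypes. At P16 the highest dMF1/2 sum, 8873 CPM, was in dMF1/2 3, where of the members only Pdyn was highest. In bulk RNA, fewer cells of a type and less RNA per cell cannot be told apart. The part of the DP markers in the P16 differences of the members, and in their changes between days, was not tested.

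Neurons and Merkel cells of the skin can make neuropeptides and their receptors. Of 16 markers listed for them, 10 had values at P14 and 11 at P16. The summed level was 29.9 to 44.7 CPM in P14 control and 46.5 to 85.7 in P14 dMF1/2, and 34.5 to 44.9 and 35.3 to 65.6 at P16. Most of it came from Piezo2, a mechanosensitive channel, at 541 ± 213 normalized reads in P14 control and 1153 ± 293 in P14 dMF1/2. Without Piezo2 the sum was 12.3 to 15 in P14 control and 10.1 to 18.3 in P14 dMF1/2, and 8.20 to 15 and 9.02 to 12.5 at P16, so the genotypes overlapped on both days. Elavl3 was at 3 reads or fewer in every P14 control library, and Prph in every P16 dMF1/2 library. No gene of the list passed the test on either day (limma, 5 tested at P14 and 4 at P16, 1 with an unadjusted p under 0.05 on each day), nor with the block or in edgeR, and DESeq2 called Piezo2 at P14 and no gene at P16. Of all genes, 0.0525% passed in limma at P14 and 4.32% at P16, and DESeq2 called 1.55% at P14. An unadjusted p under 0.05 was found in 7.32% of all genes at P14 and in 2559 of 13457 at P16. The part of these cells in the differences of the members was not tested.

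Summed levels of the other lists were 24.8 to 61.5 CPM at P14 and 19.3 to 43.5 at P16 for keratinocyte markers (of 15 listed, 15 had values at P14 and 13 at P16) and 31.9 to 69.5 and 34.1 to 55.6 for Schwann cell markers (of 9 listed, 8 and 9 had values). They were 1.70 to 3.87 and 2.12 to 3.31 for melanocyte markers (5 of 7 with values on each day), 30.1 to 68.4 and 25.0 to 57.4 for 8 endothelial markers and 3.83 to 13.1 and 9.70 to 14.3 for immune markers (of 10 listed, 5 and 6 had values), and for each of these lists the genotypes overlapped on both days. Dermal sheath markers summed to 977 to 2058 at P14 and 651 to 1498 at P16, and dermal fibroblast markers to 2200 to 2731 and 2301 to 3063, with overlap of the genotypes on both days. In these lists 1 gene passed in limma, the Schwann cell marker Erbb3, which fell at P16 from 127 ± 22 to 41.1 ± 8.5 normalized reads (adjusted p = 0.00841). With the block, markers that also passed at P16 included Pecam1 (log2 difference -1.14, adjusted p = 0.0285) and Esam (-0.68, 0.0212) of endothelium, and Dpt (-0.34, 0.0472) and Mfap5 (0.31, 0.0247) of fibroblasts. DESeq2 called Pecam1, Esam and Tie1 of endothelium, Dpp4 of fibroblasts and Erbb3 at P16. At P14 the sheath marker Itga8 passed with the block (-0.43, adjusted p = 0.0430). The median log2 difference of the 8 endothelial markers at P16 was -0.81. The part of these cells in the differences of the members was not tested.

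**Figure D4:**
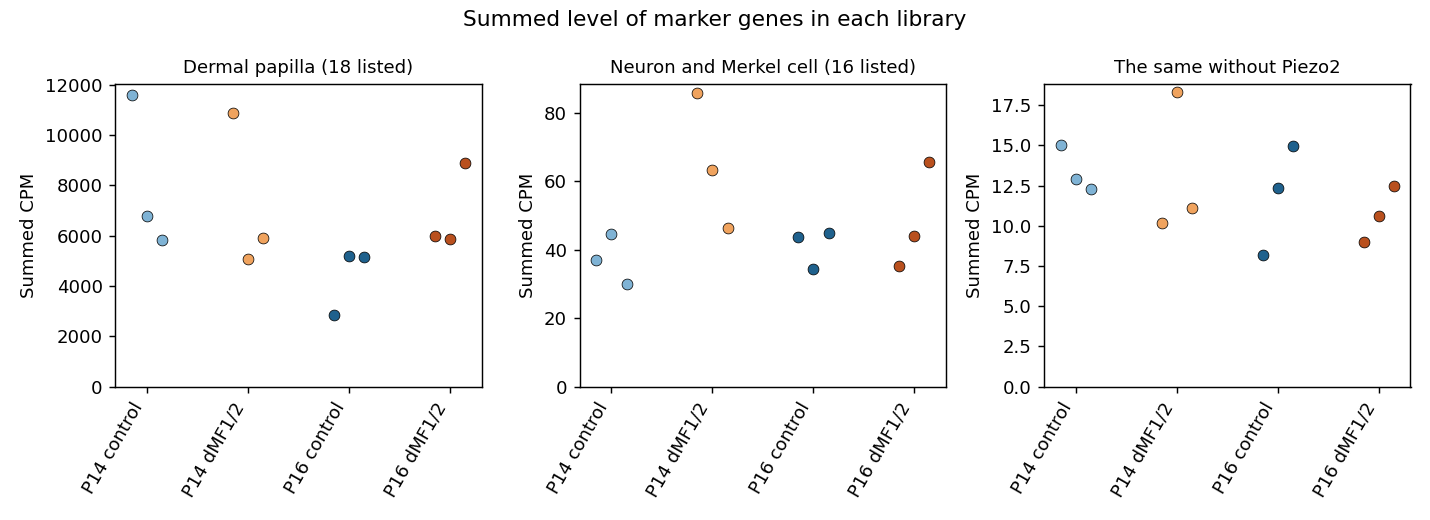
Summed CPM (y axes, from 0) of DP markers, of neuron and Merkel cell markers, and of the latter without Piezo2, in each library (points) by group (x axes). The DP sum separates the genotypes at P16 but not at P14, the neuron and Merkel cell sum separates them at P14, and that sum without Piezo2 overlaps on both days.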

How the data were processed

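RNA of YFP-sorted dermal papilla cells was sequenced from 12 libraries, 3 per genotype and day. The authors depleted ribosomal RNA, used Trimmomatic for trimming, TopHat2 for mapping to mm10 and HTSeq for counting per gene (GRCm38.p4), and divided the counts by DESeq2 size factors, per the paper's methods and the submitters' processing notes. The strand setting of the counting is not given in the sources used here. The deposited signal is thus reads per gene over the size factor of the 6 libraries of a day (15209 genes at P14, 15334 at P16, 14986 shared). 100% of values are whole multiples of 1 read (relative tolerance 1e-06), so whole reads were recovered. The authors' fold changes, test scores and p-values in the same tables were not used.

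Because the tables hold normalized values, limma 3.58.1 with a mean-variance trend was run on log2 of the value plus 1, over genes with a mean of at least 10, in R 4.3.3, with Benjamini-Hochberg adjustment and a threshold of 0.05. DESeq2 1.42.0 and edgeR 4.0.16 were run on the recovered reads. Levels between days used median-of-ratios scaling over 12 libraries. Scripts were tested on simulated data.

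Libraries with the same number were taken as pairs within a day, because the correlation of their deviations from the group means, across genes, was over 0.1 in each (0.586, 0.389 and 0.304 at P14, 0.256, 0.293 and 0.311 at P16). The labels do not say that these libraries were paired. Blocked values are printed where they change the call of a named gene or move a list's count by over 1.5 times.

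Genes named are the members, their direct ligands and receptors, list genes called on either day (up to 6 per list), the 3 genes most like each member, neighbors in the order of P16 differences (given over all genes tested), and the deleted receptors. The members and lists were chosen with earlier results of these data, of both days, known, and the P14 test is independent of the P16 criterion only in the libraries it uses. Totals of 19302358 to 29860750 reads set the counting precision, and the floor of 3 reads for a count of 0 covers counting error only. A coding sequence of Pdyn is not reported here.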

Additional observations from a re-analysis of the deposited data

Results flagged for a closer look

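Npvf, the precursor of peptides related to neuropeptide FF, was the 1 named gene whose genotypes were in opposite order on the 2 days without overlap on either, with each dMF1/2 library below each control library at P14 and above it at P16. On the scale of log2 reads plus 1 the difference at P16 exceeded that at P14 by 3.90 ± 0.75 (SE). The interaction of genotype and day did not pass after adjustment over all genes (limma, unadjusted p = 0.000247, adjusted p = 1.0, and 0.171 with the replicate block). P16 controls held 0, 1 and 0 reads and P16 dMF1/2 libraries 9, 4 and 8. Groups of 3 libraries are too small for a search for single outlying libraries.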

How the results depend on the processing

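With the replicate number as a block, 224 genes passed at P14 and 1403 at P16, and with DESeq2 207 and 1121, against 7 and 582 in limma without a block. Of the neuropeptide lists, 4 genes passed at P14 and 26 at P16 with the block, and DESeq2 called 5 and 19, against 0 and 10. DESeq2 called 7 genes for the interaction of genotype and day, and limma called 0 (648 with an unadjusted p under 0.05). The block called Npy4r (log2 difference 4.0), Sst (3.51), Pdyn (3.11) and Gpr165 (1.20) at P14, and DESeq2 called them at 3.86, 3.68, 3.15 and 1.13. Without both P14 libraries numbered 1, a setting chosen after seeing the data, Pdyn passed at 3.11.

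Leaving out 1 library at a time gave 0 to 18 genes at P14, 149 to 684 at P16, 0 to 2 for the interaction, and 0 to 0 and 2 to 12 list genes at P14 and P16. The P14 count was 18 without control 2, 4 without dMF1/2 1, and 0 without each of the other 4. The P16 count was 184 without control 3, 306 without dMF1/2 2 and 149 without dMF1/2 3, and the P16 list count 3, 5 and 2, and 6 without control 1. The log2 difference at P14 then ran from 3.51 to 4.50 for Npy4r, 0.81 to 1.47 for Npffr2, 0.99 to 1.54 for Gpr165, 2.66 to 3.56 for Pdyn and 2.94 to 4.09 for Sst.

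A larger or smaller pseudocount moved low values. With a pseudocount of 10 the P16 difference of Npy4r was 5.60 and that of Sst 1.48, and the change between days in controls was -2.43 for Npy4r and -0.65 for Sst. With 0.1 it was 7.28 for Sst at P16 and -5.60 between days. Fitted differences of Sst at P16 are therefore no measure of its fold, since its controls were at 0. All 5 members were higher in dMF1/2 at P14 and at P16 in all settings that tested them, while the sign of the change between days varied with the library left out for Gpr165 in dMF1/2 (-0.12 to 0.30) and for Pdyn in controls (-0.66 to 0.84). At this depth Sst, Oprk1, Npff and Npvf rest on few reads.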
